A study of Homo sapiens with 12 samples.

Results

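Some annotated miRNAs have the sequence of a longer, structured RNA, so a probe for them can count a fragment of that RNA. Described here are the 4 of 798 probes on a human miRNA panel whose name contains miR-1246, miR-1290, miR-4454 (on a joint probe with miR-7975) or miR-6724-5p. They were chosen by name, in the knowledge that their counts jump between libraries, so those jumps are a description. miR-1246 is counted in the tallies of probes called, but no fitted value of it is given and nothing is read from its calls. The fitted values of the other 3 are printed beside the share of all tested probes that passed. All 4 were among the 67 probes that reached 30 counts in at least 3 libraries and were tested. miR-1246 and miR-4454/miR-7975 reached that level in MOLM-14 libraries alone, so they were tested through the line where they are high. In THP-1 miR-6724-5p reached it only in scrambled replicates 2 and 3 (33 counts each), too few for the filter. It too was therefore tested through MOLM-14.

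U2 snRNA is a core RNA of the spliceosome, and miR-1246 and miR-1290 resemble a stretch of it. Transfer RNAs carry amino acids to the ribosome and end in CCA, and miR-4454 and miR-7975 resemble the end of a histidine tRNA. The miR-6724 genes lie in ribosomal DNA, from which the rRNAs of the ribosome are transcribed. Such RNAs are abundant in every cell, and miR-1246 is widely measured in extracellular vesicles of tumour cells. Whether a count came from a processed miRNA or from a fragment cannot be told apart with these probes.

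The counts come from a NanoString assay, which counts barcoded probes without amplification, on total RNA of MOLM-14 and THP-1, 2 established monocytic cell lines from human acute myeloid leukaemia. Each line had been given, by lentivirus, either a MUC1 specific shRNA (silenced) or a scrambled control hairpin, with 3 libraries in each of the 4 groups. Both arms therefore carry a lentiviral hairpin, and no untransduced cells were analysed here. MUC1, a transmembrane mucin, is not on the panel, so its silencing was not checked. Silenced MOLM-14 replicates 2 and 3 have source names that read MUC2 and MUC3, while their titles and transduction labels name MUC1, which was used. The labels do not say whether the 3 libraries of a group are separate cultures. The p-values below therefore reflect library-to-library spread, which may be technical.

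Library totals ran from 9002 to 20418 counts. Background was taken as the mean of the 630 probes that stayed above 1 and under 30 counts in every library, and lay between 10.1 and 15.1 counts per library. Silenced MOLM-14 replicate 2 stood apart from its group, with a Pearson r of 0.654 and 0.697 with the other 2 silenced libraries against 0.961 between those. It had 88 probes at 30 counts or more, against 33 and 28 in the others, and the highest total of the 3. Means, fitted values and likeness of pattern that rest on it are given with and without it. Scrambled MOLM-14 replicates 2 and 3 agreed within sampling noise (a chi-square of 1.08 per degree of freedom, p = 0.0521, across all probes, and 1.23, p = 0.0951, across tested probes) and were counted as 1 sample in means. Silenced THP-1 pairs were as close, at 0.944 to 1.06 across tested probes (p of 0.351 to 0.606), and those libraries, the shallowest, were kept as 3. In scrambled THP-1 the closest pair, replicates 1 and 3, had a chi-square of 1.07 per degree of freedom across all probes but 1.51 across tested probes, above sampling noise, and was kept apart. The fits used all 12 libraries. Of the 3 myeloid marker miRNAs, miR-155-5p and miR-223-3p reached 30 counts in at least 1 library of every group but silenced THP-1, where the 3 together summed to 38 to 56 counts. The third, miR-142-3p, reached 30 counts in no group. Of 11 markers of other tissues, miR-122-5p alone reached 30 counts, in silenced MOLM-14. Per library the 3 myeloid markers summed to 38 to 162 counts and the 11 others to 102 to 180.

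The mature sequences show which probes could share a signal. All 5 miRNAs were found in the RefSeq table of GRCh38.p14. They are printed 5′ to 3′ with the seed, bases 2 to 8, in capitals.
miR-1246: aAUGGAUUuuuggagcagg
miR-1290: uGGAUUUUuggaucaggga
miR-4454: gGAUCCGAgucacggcacca
miR-7975: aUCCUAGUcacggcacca
miR-6724-5p: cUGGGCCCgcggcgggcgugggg
No 2 of them share a seed. Of 2370 mature miRNAs in the table, 1 each has the seeds of the first 4, and 2 have that of miR-6724-5p.

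Despite their different seeds, the miRNAs fall into 2 near-identical pairs. The pairs are shown again with the longest stretch they share in capitals.
miR-1246: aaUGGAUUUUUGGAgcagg
miR-1290: UGGAUUUUUGGAucaggga
miR-4454: ggauccgAGUCACGGCACCA
miR-7975: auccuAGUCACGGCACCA
The shared stretch of miR-1246 and miR-1290 is 12 bases long, at bases 3 to 14 of the first and 1 to 12 of the second. Over 17 aligned bases 16 are identical, and the difference is G15U, counted from the 5′ end of miR-1246 with its base first. The shared stretch of miR-4454 and miR-7975 is 13 bases long and runs to the 3′ end of both. Over 18 aligned bases 17 are identical, with G7U counted from the 5′ end of miR-4454. Each stretch occurs in 2 of the 2370 mature miRNAs, the pair itself. Both members of the second pair end in CCA, as do 45 mature miRNAs in all (1.9%). The panel reads miR-4454 and miR-7975 with 1 joint probe, whereas miR-1246 and miR-1290 have a probe each.

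The genes of these miRNAs are scattered over the genome (GRCh38.p14). MIR1246 lies at chr2:176600980-176601052, in no other annotated gene, 10385 bases from the lncRNA gene LINC01116. MIR1290 lies at chr1:18897071-18897148, inside the bounds of the protein-coding gene ALDH4A1. MIR4454 (chr4:163093574-163093628) and MIR7975 (chr19:55123225-55123292) overlap no other gene, and their nearest neighbours are NAF1 and PPP1R12C. miR-6724-5p has 4 gene copies on chromosome 21. Of these, 3 have an rRNA precursor gene as nearest neighbour, RNA45SN2 and RNA45SN3 at 582 bases and RNA45SN1 at 601 bases. The nearest neighbour of the other, MIR6724-2, is the rRNA pseudogene RNA18SP5, 4246 bases away.

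The hairpins of MIR1246 and MIR6724-2 are printed to show where the miRNA, in capitals, lies in its precursor. The first is on the minus strand and the second, at chr21:8249505-8249596, on the plus strand.
MIR1246: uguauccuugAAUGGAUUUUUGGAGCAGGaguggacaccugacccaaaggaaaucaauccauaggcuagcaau
MIR6724-2: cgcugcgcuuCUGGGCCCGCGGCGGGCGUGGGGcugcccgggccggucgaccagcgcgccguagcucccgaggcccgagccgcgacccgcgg
Of the bases of miR-6724-5p 91.3% are G or C, the seventh highest share among the mature miRNAs of the table. The share was 42.1% in miR-1246 and in miR-1290.

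miR-1246 was either at 1 or far above background, with a single library between. It had 1, 188 and 1 counts in silenced MOLM-14 replicates 1, 2 and 3, and 14, 172 and 224 in the scrambled replicates. In THP-1 it was at 1 in all 3 silenced and all 3 scrambled libraries. The 3 high libraries, all of MOLM-14, had 12.3 to 14.8 times their background mean, and scrambled replicate 1, with 14 counts (exact Poisson 95% interval 7.7 to 23.5), had 1.11 times its own. The remaining 8 libraries lay at 0.0674 to 0.0985 of their background mean. The 2 MOLM-14 groups overlapped, with means of 63.3 ± 108 counts (SD, n = 3) silenced and 106 ± 130 (n = 2) scrambled, each SD larger than its mean. Without silenced replicate 2 the silenced mean is the floor of 1. Within MOLM-14 the high libraries were also the deeper ones. The 3 with miR-1246 at 172 or more had totals of 17281, 16172 and 17527 counts and 55 to 88 probes at 30 counts or more. The other 3 had totals of 12630, 11103 and 12978 counts and 28 to 33 such probes. In scrambled THP-1, with totals of 17123 to 20418 counts, the probe was nonetheless at 1. The part of depth in these jumps was not tested.

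**Figure D1:**
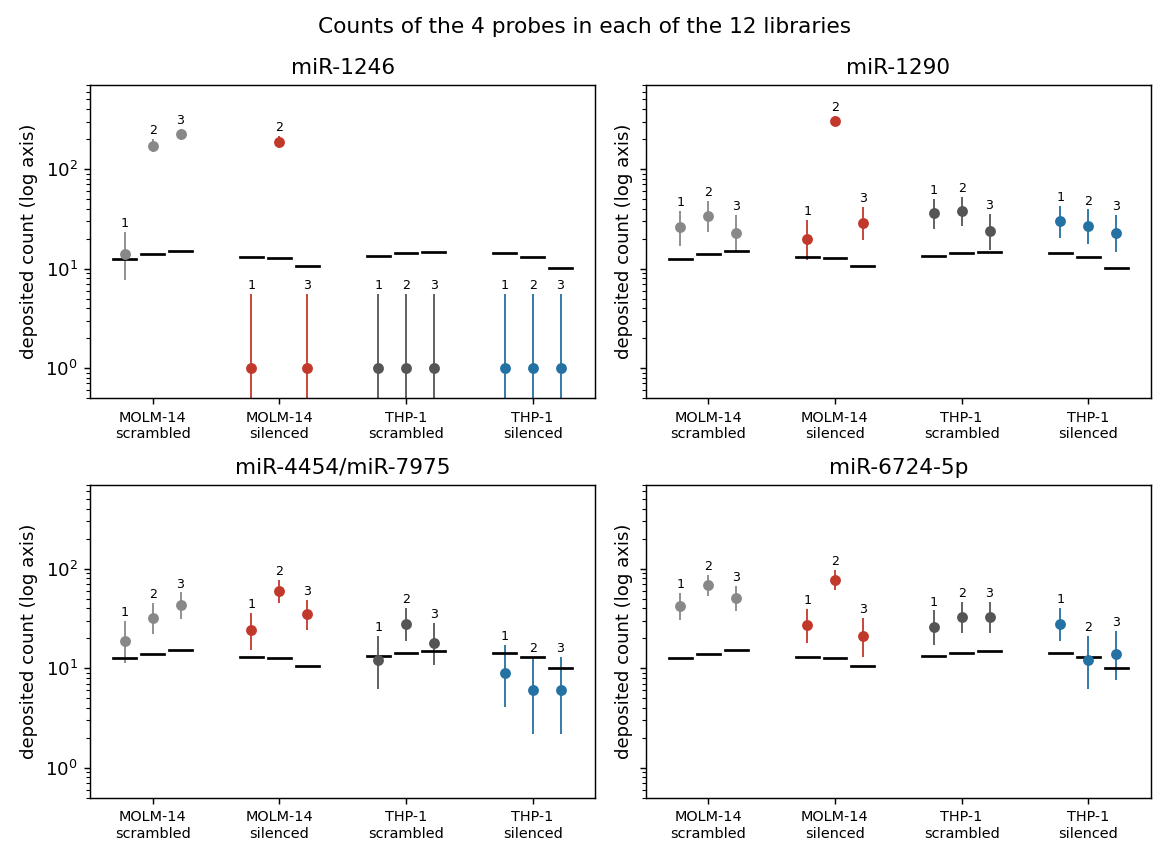
Deposited counts (log axis) of each probe in the 12 libraries by line and hairpin, with points numbered by replicate, vertical lines for exact Poisson 95% intervals, which cover counting error only, and black bars for the mean of the 630 background probes in that library. miR-1246 sits at 1 in 8 libraries and between 172 and 224 in 3, and miR-1290 leaves the range of 20 to 38 counts only in silenced MOLM-14 replicate 2.

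The value of 1 is the lowest in the table. It occurred 225 times among 9576 values, against 27 values of 2, 46 of 3 and 85 of 4. Of the 798 probes, 15 were at 1 in all 12 libraries and 769 in none, so 14 probes were at 1 in only some libraries, miR-1246 among them. A count of 1 is treated as a floor here, below which a level is not known, and no fold is given against it. What made the floor is not given in the sources used here.

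**Figure D2:**
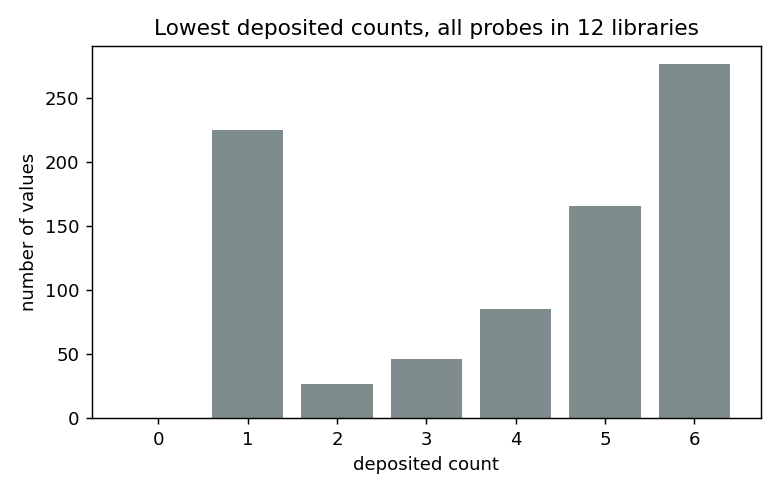
Number of values (bars) at each of the lowest deposited counts, from 0 to 6, over 798 probes in 12 libraries. No value is 0, and the 225 values of 1 exceed the 27 of 2, the 46 of 3 and the 85 of 4.

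miR-1290 did not follow its near-identical partner. It had 20, 303 and 29 counts in silenced MOLM-14 and 26, 34 and 23 in scrambled MOLM-14. It had 30, 27 and 23 counts in silenced THP-1 and 36, 38 and 24 in scrambled THP-1. In 11 libraries it therefore lay between 20 and 38 counts, and in the remaining one, silenced MOLM-14 replicate 2, it was 23.8 times the background mean. That was also a high library for miR-1246. In scrambled MOLM-14 replicates 2 and 3, where miR-1246 was at 172 and 224, miR-1290 was at 34 (exact Poisson 95% interval 23.5 to 47.5) and 23 (14.6 to 34.5), within its range elsewhere. In the 6 THP-1 libraries miR-1290 was 1.62 to 2.71 times background, with miR-1246 at the floor. The silenced MOLM-14 mean was 117 ± 161 counts (SD, n = 3), and 24.5 ± 6.36 (n = 2) without replicate 2. The other group means were 27.2 ± 1.77 (n = 2) in scrambled MOLM-14, 26.7 ± 3.51 in silenced THP-1 and 32.7 ± 7.57 in scrambled THP-1 (n = 3 each), so the first place of silenced MOLM-14 rests on that library.

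The joint tRNA-like probe, miR-4454/miR-7975, ran without jumps and was lowest in silenced THP-1. Its counts were 24, 60 and 35 in silenced and 19, 32 and 43 in scrambled MOLM-14. They were 9, 6 and 6 in silenced and 12, 28 and 18 in scrambled THP-1. All 3 silenced THP-1 libraries lay below the lowest scrambled one, and at 0.46 to 0.631 of their background mean, so how much signal was left there is not known. Silenced THP-1 libraries were shallower too, with totals of 9002 to 12613 counts against 17123 to 20418 in scrambled THP-1, and the part of depth was not tested. In bulk RNA, fewer cells holding an RNA and less of it per cell cannot be told apart. In MOLM-14 the groups overlapped, and every library lay above its background mean, by 1.5 to 4.71 times. Group means stood in the order silenced MOLM-14 (39.7 ± 18.4 counts, SD, n = 3), scrambled MOLM-14 (28.3 ± 13.1, n = 2), scrambled THP-1 (19.3 ± 8.08, n = 3) and silenced THP-1 (7 ± 1.73, n = 3). Without replicate 2 the silenced MOLM-14 mean was 29.5 ± 7.78 (n = 2). That left the order as it was only because scrambled MOLM-14 replicates 2 and 3 were counted as 1 sample. The MOLM-14 groups overlapped in their libraries, as did the scrambled lines, and the THP-1 groups did not.

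The probe for rDNA-like miR-6724-5p had its highest counts in MOLM-14. It had 27, 78 and 21 counts in silenced and 42, 69 and 51 in scrambled MOLM-14, and 28, 12 and 14 in silenced and 26, 33 and 33 in scrambled THP-1. The highest count of all was again in silenced MOLM-14 replicate 2, at 6.13 times background. The other 2 silenced MOLM-14 libraries lay below every scrambled one. In MOLM-14 the mean was 51 ± 12.7 counts (SD, n = 2) for the scrambled hairpin and 42 ± 31.3 (n = 3) for the silenced cells. In THP-1 it was 30.7 ± 4.04 and 18 ± 8.72 (n = 3 each). Without replicate 2 the silenced MOLM-14 mean was 24 ± 4.24 (n = 2), below that of scrambled THP-1. With all libraries, neighbours in this order overlapped in their libraries, while the scrambled lines did not overlap each other. The scrambled lines failed to overlap for 28.4% of the tested probes, and this probe passed the count filter through MOLM-14.

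The spread within groups was set against that of all 67 tested probes. In silenced MOLM-14 miR-1246 ran from the floor of 1 to 188 counts, so no ratio is given. The highest count there was 15.2 times the lowest for miR-1290, 3.71 for miR-6724-5p and 2.5 for miR-4454/miR-7975. The median over the tested probes was 1.72. Only let-7a-5p ran wider than miR-1246 there, also from the floor, and such jumps were known when miR-1246 was chosen. In scrambled MOLM-14 the ratio of miR-1246 was 16, and none of the 67 was wider. There miR-4454/miR-7975 had 2.26 (10 probes wider), while miR-6724-5p had 1.64, the median of the tested probes, and miR-1290 had 1.48. In silenced THP-1, with a median of 1.5, the ratio was 2.33 for miR-6724-5p (5 probes wider), 1.5 for miR-4454/miR-7975 and 1.3 for miR-1290. In scrambled THP-1, with a median of 1.39, it was 2.33 for miR-4454/miR-7975 (2 probes wider), 1.58 for miR-1290 and 1.27 for miR-6724-5p. Of the 798 probes, 2 went from 1 to at least 100 counts within a group, miR-1246 and let-7a-5p (1, 395 and 78), both in silenced MOLM-14. let-7a-5p was at 1 in silenced THP-1 too, but at 434 to 913 counts in scrambled THP-1, where miR-1246 was at 1.

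The high counts of silenced MOLM-14 replicate 2 were then followed over the whole panel. In that library 14 probes reached 100 counts, and 8 of them were at least 5 times above both other silenced MOLM-14 libraries, limits set after the values were seen. The 8 were miR-1246, miR-1290, miR-16-5p, miR-548n, miR-877-5p, miR-219a-2-3p, miR-483-3p and let-7a-5p. By the same limits no probe stood out in any of the other 11 libraries. For 6 of the 8 the library was also 5 times above all 11 others, miR-1290 among them. miR-877-5p, for example, had 350 counts there and 7 to 31 elsewhere, and miR-219a-2-3p had 147 against 8 to 18. miR-1246 and let-7a-5p were not among these 6, since other libraries held as much of them or more. let-7b-5p, with 802 counts, was only 1.37 times above the higher of the other silenced libraries, and miR-191-5p (111 counts) was below it.

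**Figure D3:**
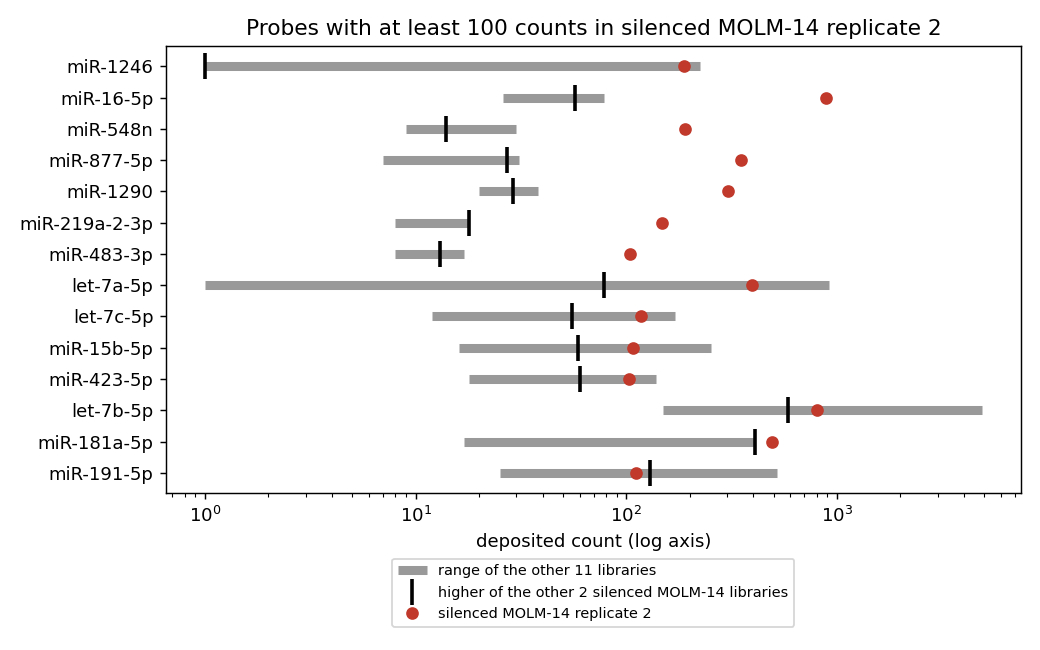
Deposited counts (log axis) of the 14 probes with at least 100 counts in silenced MOLM-14 replicate 2 (red points), with the range of the other 11 libraries (grey bars) and the higher of the other 2 silenced MOLM-14 libraries (black ticks). The point of miR-1290 lies at 303 counts, beyond the grey bar that ends at 38, while that of miR-1246, at 188, lies inside a bar from 1 to 224.

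The hairpin comparison in MOLM-14 was fitted over all 67 tested probes. None of the 4 passed (edgeR quasi-likelihood, adjusted p under 0.05), against 16.4% of the tested probes. An unadjusted p under 0.05 was reached by 2 of the 4 and by 22 of the 67 tested probes, and DESeq2 and limma called none of the 4. The log2 fold change of miR-1290 was 2.14 ± 0.85 (SE, edgeR adjusted p = 0.130), and 0.21 ± 0.28 without silenced replicate 2. For miR-4454/miR-7975 it was 0.60 ± 0.28 (edgeR adjusted p = 0.132), and 0.34 ± 0.27 without that library. For miR-6724-5p it was -0.18 ± 0.32 (edgeR adjusted p = 0.811), and -0.78 ± 0.25 without that library, where it passed (edgeR adjusted p = 0.0147). Without that library 15 of the 67 tested probes passed. For miR-1246, leaving out that library leaves silenced counts of 1 and 1 beside 14, 172 and 224. The counts of the 2 groups overlapped for all 4 probes, and failed to overlap for 22.4% of the tested probes. miR-1290 passed without silenced replicate 1 (2.62 ± 0.71, edgeR adjusted p = 0.0278), as did miR-4454/miR-7975 (0.82 ± 0.28, edgeR adjusted p = 0.0254). In that setting 21 of the 67 tested probes passed. It leaves the outlying replicate 2 beside replicate 3 alone, with miR-1290 at 303 and 29 counts.

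In THP-1 none of the 4 passed either (edgeR quasi-likelihood, with 40.3% of the tested probes called). None of the 4 had an unadjusted p under 0.05, against 34 of the 67 tested probes, and DESeq2 and limma called none of the 4. miR-4454/miR-7975 had a log2 fold change of -0.69 ± 0.36 (SE, edgeR adjusted p = 0.116), and was the 1 of 4 whose groups did not overlap, against 55.2% of the tested probes. miR-6724-5p was at -0.03 ± 0.35 and miR-1290 at 0.47 ± 0.88. These values depend on the scaling. When libraries were scaled on the 630 background probes, the median of all tested probes moved from -0.03 to -0.61, and calls from 11 higher and 16 lower to 2 higher and 31 lower. Under that scaling miR-4454/miR-7975 was at -1.27 ± 0.43 and passed (edgeR adjusted p = 0.0207), while under the reported scaling and without scrambled replicate 2 it was at -0.13 ± 0.40 (edgeR adjusted p = 0.833). With background scaling miR-6724-5p was at -0.60 ± 0.42, and miR-1290 turned to -0.12 ± 0.93. miR-1246, at the floor in all 6 libraries, has no fold.

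**Figure D4:**
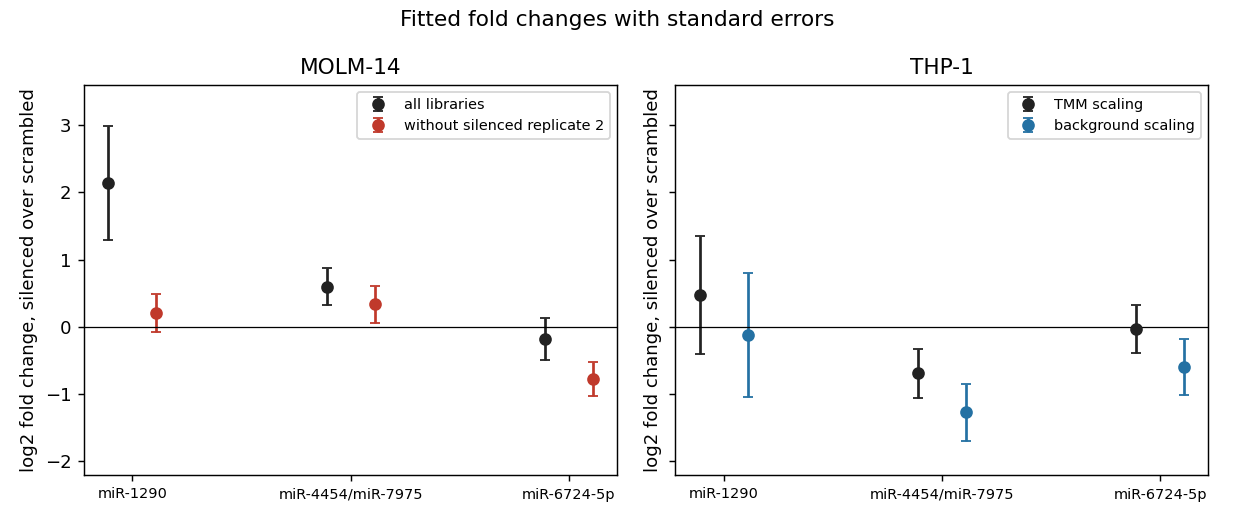
Fitted log2 fold changes, silenced over scrambled, with standard errors, for the 3 probes that were not at the floor of 1 in any library. In MOLM-14 (left) leaving out silenced replicate 2 moved miR-1290 from 2.14 to 0.21 and miR-6724-5p from -0.18 to -0.78, and in THP-1 (right) background scaling moved miR-4454/miR-7975 from -0.69 to -1.27.

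The difference between the hairpin effects of the lines was past the threshold for 1 of the 4 probes, miR-4454/miR-7975, with 26.9% of the tested probes called. The THP-1 effect minus the MOLM-14 effect was -1.29 ± 0.46 on the log2 scale (edgeR adjusted p = 0.0384). This call was not stable. It was kept in 7 of 24 alternative settings, with adjusted p from 0.00802 to 0.244, and lost without the robust option of the fit (0.0543), with DESeq2 (0.0540) and without any 1 of 10 of the 12 libraries. The call was also lost when scrambled MOLM-14 replicates 2 and 3 were averaged into 1 sample, as in the means (-1.37 ± 0.50, edgeR adjusted p = 0.0548). Without THP-1 scrambled replicate 2, which held its highest count in that line, the value was -0.74. Without silenced MOLM-14 replicate 2 it was -1.03 ± 0.44 (edgeR adjusted p = 0.0729). The sign was the same in all 24. The size is uncertain because silenced THP-1 lay below background. Calls over all probes went from 4 higher and 14 lower to 2 higher and 23 lower under background scaling. miR-1290 gave -1.67 ± 1.22, and 0.26 ± 0.38 without silenced MOLM-14 replicate 2, and miR-6724-5p gave 0.15 ± 0.48, and 0.75 ± 0.36 without that library. Under background scaling miR-6724-5p gave -0.42 ± 0.56.

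The scrambled libraries give the starting level of each line. Counts of miR-1246 and miR-6724-5p did not overlap between scrambled MOLM-14 and scrambled THP-1, and were lower in THP-1, which makes 2 of 4 probes against 28.4% of the tested probes. Both passed the count filter through MOLM-14, which favours probes that are higher there, so nothing is read from this count. None of the 4 passed the fit (edgeR quasi-likelihood, 2.99% of the tested probes called, 1 higher and 1 lower). An unadjusted p under 0.05 was reached by 3 of the 4 and by 17 of the 67 tested probes. All 3, miR-1246, miR-4454/miR-7975 and miR-6724-5p, were tested through MOLM-14, where they are high. The log2 fold change of miR-6724-5p, THP-1 over MOLM-14, was -0.97 ± 0.32 (SE, edgeR adjusted p = 0.0622), and passed when only these 2 groups were fitted (-0.93 ± 0.23, edgeR adjusted p = 0.00180). That fit called 16 of the 67 tested probes. miR-4454/miR-7975 was at -0.82 ± 0.30 (edgeR adjusted p = 0.0734), and passed without THP-1 scrambled replicate 2 (-1.14 ± 0.33, edgeR adjusted p = 0.0309), where 5 of the 67 tested probes were called. This probe reached 30 counts in MOLM-14 only, with at most 28 in THP-1, so it entered the fit through the line where it is higher. DESeq2 called 1 of the 4, miR-1246, as did limma after adding a pseudocount of 1, and limma with a pseudocount of 10 called none. miR-1246 was in the fit through its high MOLM-14 libraries and had 14, 172 and 224 counts beside 1, 1 and 1, so nothing is read from those calls. miR-1290 was at 0.06 ± 0.88. Under background scaling calls over all probes were 4 higher and 1 lower, and under total count scaling 1 higher and 4 lower.

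Likeness of pattern was measured as Spearman's rho of log2 count per library total over the 12 libraries, among the tested probes, as a description. All points share their library's depth, and libraries at the floor are ordered by their total alone. miR-4454/miR-7975 was most like miR-181a-5p (rho 0.89), miR-128-1-5p (0.86) and miR-188-5p (0.80), followed by miR-16-5p and miR-6724-5p (0.78 each). miR-6724-5p was most like miR-4454/miR-7975 (0.78), then miR-15a-5p (0.74), miR-125b-5p (0.73), miR-548y (0.70) and miR-1246 (0.65). The probes nearest to miR-1246 were miR-6724-5p (0.65), miR-125b-5p (0.60), miR-548y (0.56), miR-4531 (0.53) and miR-4454/miR-7975 (0.52). Those nearest to miR-1290 were miR-548g-3p (0.71), miR-196a-5p (0.69), miR-548ah-5p (0.68), miR-149-5p (0.58) and miR-574-5p (0.57). Between miR-1246 and miR-1290 rho was 0.23, and 0.10 without silenced MOLM-14 replicate 2, while between miR-4454/miR-7975 and miR-6724-5p it was 0.78 and 0.72. Without that library the most similar probe changed for 3 of the 4. miR-6724-5p was then most like miR-125b-5p (0.90), ahead of miR-4454/miR-7975. miR-1246 was also most like miR-125b-5p (0.75), with miR-1180-3p (0.65) ahead of miR-6724-5p (0.57). For miR-1290 the first places went to miR-196a-5p, miR-548ah-5p and miR-922 (0.67 each), ahead of miR-548g-3p (0.63). miR-4454/miR-7975 stayed most like miR-181a-5p (0.90), with miR-25-3p (0.86) next.

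Other annotated miRNAs overlap structured RNAs too, and a list of 17 such names found 9 probes. They match tRNA (miR-1260a and miR-1260b), snoRNA (miR-1248, miR-1291, miR-664a-3p, miR-664b-3p and miR-664b-5p) and mitochondrial RNA (miR-1973 and miR-4485-3p). The 8 that did not pass the count filter had 1 to 25 counts over all libraries. Apart from miR-664a-3p, which stood at 1 in a scrambled THP-1 library, they are background probes by the definition used here. miR-1973 passed the filter with 15 to 35 counts. It had 18, 29 and 15 counts in silenced and 18, 15 and 23 in scrambled MOLM-14, and 23, 30 and 22 in silenced and 30, 27 and 35 in scrambled THP-1. It passed none of the 4 comparisons (edgeR adjusted p from 0.141 to 0.870). None of the 9 reached 100 counts in any library, silenced MOLM-14 replicate 2 included.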

How the data were processed

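The deposited table holds counts of 798 probes for 12 samples, taken as counts because all are whole numbers and column totals differ. How the authors counted, corrected background or scaled lanes is not given in the sources used here, and some probes may hold corrected values. Samples were grouped by title and transduction label.

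The 67 probes that reached 30 counts in 3 or more samples were TMM-scaled and fitted in 1 model of 4 group means with edgeR 4.0.16 (quasi-likelihood, robust option, R 4.3.3), with Benjamini-Hochberg adjustment over 67 probes and a threshold of 0.05. The robust option was set after seeing the data, to match an earlier fit of these counts. Standard errors are the log2 fold change over the root of the F statistic. The fit was also run on simulated counts. These had the same spread setting for all probes, no floor at 1 and no outlying library, so that run cannot show how the fit does for the 4 probes. Alternatives included DESeq2 1.42.0 and limma 3.58.1, other scalings, filters and left-out libraries.

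The probes and lists were chosen with earlier results of these data known. Named were the 4 probes, the 5 probes most like each, a list of other structured-RNA overlaps, and probes that go from 1 to 100 counts or more within a group. Sequences and gene positions come from RefSeq (GRCh38.p14). The build is not given in the sources used here for the counts. At totals of 9002 to 20418 counts, counting error is large for most probes, and Poisson intervals cover that error only.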

Additional observations from a re-analysis of the deposited data

Results flagged for a closer look

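The joint probe miR-4454/miR-7975 passed the threshold for a difference between the hairpin effects of the 2 lines, tested as an interaction term. The THP-1 effect minus the MOLM-14 effect was -1.29 on the log2 scale (edgeR quasi-likelihood adjusted p = 0.0384). The probe was chosen with earlier results known, and it entered the fit through MOLM-14, where its counts are higher. All 3 silenced THP-1 libraries (9, 6 and 6 counts) lay below background and below every scrambled THP-1 library, while the MOLM-14 groups overlapped. Groups failed to overlap for 55.2% of the tested probes in THP-1 and for 22.4% in MOLM-14. Silenced THP-1 libraries were also shallower, with totals of 9002 to 12613 counts against 17123 to 20418, and the part of depth was not tested. The call was lost in 17 of 24 alternative settings, and the probe's counts came near background in THP-1, so the size is uncertain.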

How the results depend on the processing

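The count of calls over all 67 probes stayed within 1.5 times of the reported one in all 15 other settings for MOLM-14 (9 to 14, reported 11), in 14 of 15 for THP-1 (21 to 36, reported 27) and in 13 of 14 for the difference between the lines (14 to 25, reported 18). Averaging the silenced THP-1 libraries into 1, with its spread taken from the other groups, left 15 calls in THP-1 and 11 in the difference, in a setting with fewer samples. Leaving out 1 library at a time gave 9 to 21 calls in MOLM-14 (21 without silenced replicate 1), 20 to 39 in THP-1, 14 to 27 in the difference and 2 to 5 between the scrambled lines (5 without THP-1 scrambled replicate 2). Between the scrambled lines the count moved from 2 to 6 with limma at a pseudocount of 1, to 5 with total count scaling, to 5 with background scaling, to 6 with a filter of 50 counts, to 16 with only the groups compared and to 6 without the robust option. It was 12 with background scaling and without silenced MOLM-14 replicate 2. The cause was not tested. The settings chosen after seeing the data were the robust option, the averaging of silenced THP-1 and this last combination.

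With the replicate number as a block the counts were 14, 26, 21 and 3. Of 18 same-numbered pairs, 6 had deviations correlated above 0.1 (-0.417 to 0.441), so the numbers were not taken to pair libraries. The block changed no call of the 4 probes. Counts of 1 or near background do not show how much RNA was left, which limits what the fitted values of these probes can show.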
